A study of Mus musculus with 15 samples.

Results

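The intercalated disc is the seam at which heart muscle cells meet end to end. This account follows 10 of its genes, 3 connexins, 2 genes of the adherens junction and 5 genes of the desmosome, through the left ventricle of infarcted and sham-operated mice. They were taken by gene symbol from a table of 47069 genes, in which all 10 were present, and all 10 had enough counts to be tested in each comparison. The members are the connexin genes Gja1, Gjc1 and Gja5, the adherens junction genes Cdh2 and Ctnna3, and the desmosome genes Dsp, Pkp2, Jup, Dsg2 and Dsc2.

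Gap junctions at the disc are channels built from connexins that pass current and small molecules between neighbouring cells. Adherens junctions and desmosomes hold the cells together under load, the first by cadherins and catenins tied to actin, the second by desmosomal cadherins tied through plakoglobin, plakophilin and desmoplakin to desmin filaments. In human hearts, mutations of the desmosome genes are a known cause of arrhythmogenic cardiomyopathy, and rearrangement of connexin 43 at the border of an infarct is a classical observation.

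Messenger RNA of the left ventricle was sequenced from C57BL/6 mice in 3 groups of 5 biological replicates. In the rHCI group the heart muscle was injected with a hydrogel of recombinant human collagen type I on day 7 after a myocardial infarction, and in the PBS group with phosphate-buffered saline on the same day. Tissue of both was frozen 2 days after the injection. The Sham group had a sham operation and no treatment and was taken at an age of 10 weeks, so against these hearts the effects of infarct and injection cannot be told apart. Libraries are called by group and number, rHCI 1, 3, 7, 11 and 13, PBS 2, 6, 9, 12 and 14, and Sham 16 to 20, and values are always listed in that order.

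Total counts were between 32978702 and 103356830 per library. Levels are given in CPM, the share of a library's counts scaled to a common total after TMM scaling over all 15 libraries, with the SD of 5 libraries. Of the 15 libraries, 12 carried the same number in their labels, and rHCI 1, PBS 6 and Sham 19 carried others. The labels do not say what this label number stands for. The tissue label fitted the defining markers of heart muscle, with 12 listed cardiomyocyte genes adding up to 46057 to 68631 CPM in rHCI hearts, 44280.3 to 62889.9 CPM in PBS hearts and 81513 to 92373 CPM in Sham hearts. PBS 6 stood apart by 10 listed genes of lung epithelium, which added up to 76.1 CPM there, while the lowest PBS library had 0.416 CPM.

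Most of the disc's adhesion genes were lower in infarcted hearts of both injections than in Sham hearts, while Gja5 and Gjc1 were higher and Gja1 did not differ beyond the spread. This holds on the TMM scale, on which the median gene does not shift, and it does not hold relative to other cardiomyocyte genes, as given below. In bulk tissue, fewer muscle cells and less RNA per muscle cell cannot be told apart. The plot of the 10 genes by library shows the separation gene by gene.

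Taken by number, PBS hearts had 2 disc genes higher and 7 lower than Sham hearts (edgeR, quasi-likelihood test, p adjusted after Benjamini and Hochberg over 16207 genes), while scaling to the cardiomyocyte list gave 6 higher and 0 lower, beside 83.0% of all genes called on that scale. Calls were common in that comparison, with 71.4% of all genes tested, 36.5% higher and 34.9% lower. The median log2 fold change of the 10 genes was −0.44, beside −0.01 over all genes. The libraries of both groups did not overlap for 8 of the 10 genes, 2 higher and 6 lower in PBS hearts, and for 58.7% of all genes, 31.5% higher and 27.2% lower. In rHCI against Sham hearts 2 were likewise higher and 7 lower, where 63.9% of 16076 genes passed, 34.1% higher and 29.7% lower, and scaling to the cardiomyocyte list gave 5 higher and 0 lower, beside 75.5% of all genes. The median there was −0.36 for the 10 genes and 0.00 for all genes, and 8 of the 10 did not overlap, 1 higher and 7 lower in rHCI hearts, beside 49.4% of all genes, 27.0% higher and 22.4% lower. Both comparisons use the same Sham libraries. Without PBS 6 the number of disc genes that differed in PBS against Sham hearts was also 9.

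**Figure D1:**
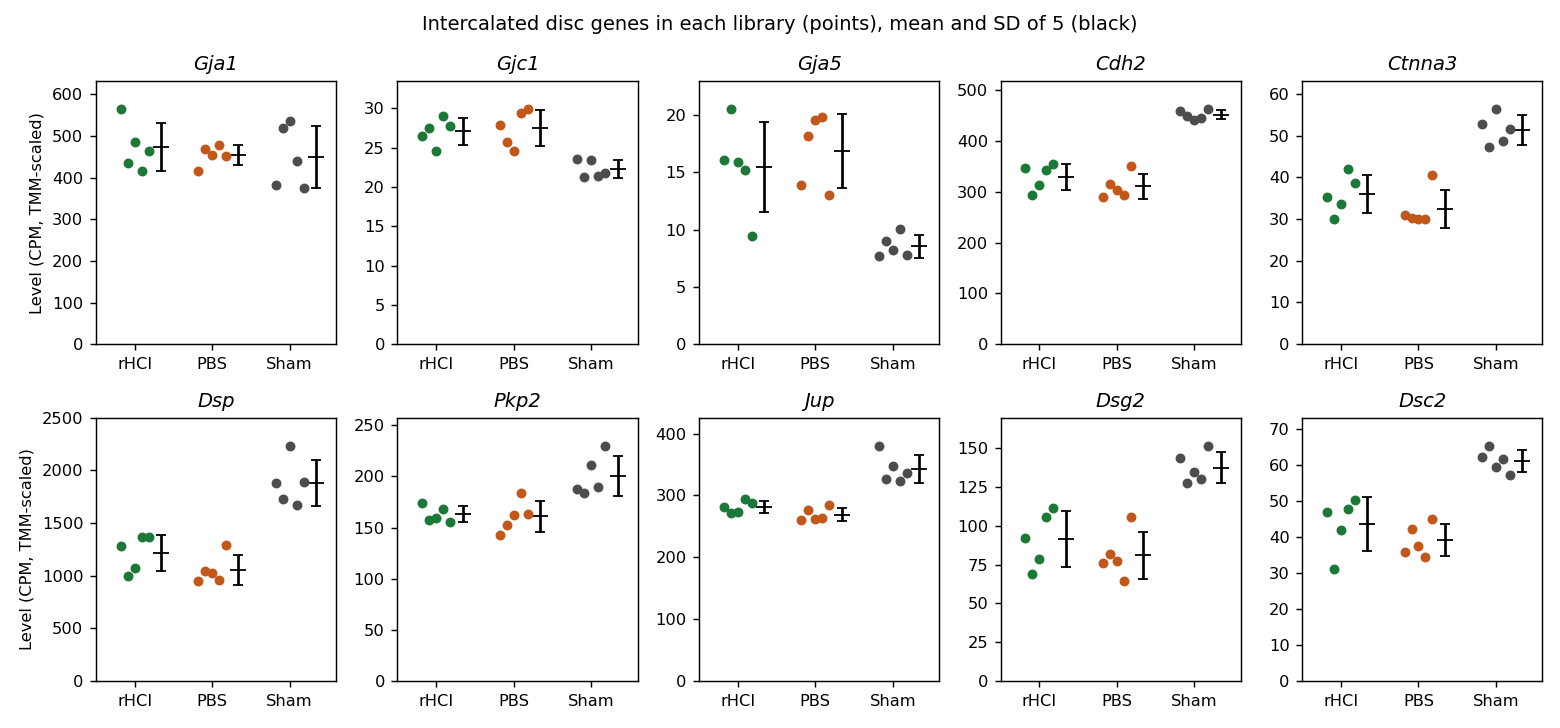
Level of each of the 10 disc genes in CPM (TMM-scaled counts, axis from 0) in the 5 rHCI, 5 PBS and 5 Sham libraries; points are libraries and black marks are mean and SD. The 5 Sham libraries lie above every infarcted library for Cdh2, Ctnna3, Dsp, Jup, Dsg2 and Dsc2, while scaled to the cardiomyocyte list no gene is called lower in infarcted hearts.

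Gja1 encodes connexin 43, the main connexin of working ventricular muscle (ENSMUSG00000050953; GRCm38 chromosome 10, 56377330 to 56402513, plus strand). It had 564, 435, 486, 415 and 463 CPM in rHCI hearts, 415, 469, 453, 477 and 451 CPM in PBS hearts, and 382, 519, 535, 440.0 and 375 CPM in Sham hearts. The 3 groups overlapped widely, rHCI 1 was the highest of all, and Sham 16 and 20 were low and Sham 17 and 18 high within their group. Gja1 had a log2 fold change of 0.01 ± 0.10 (SE) in PBS against Sham hearts, with a 95% interval of −0.20 to 0.22 and adjusted p = 0.952. In rHCI against Sham hearts the value was 0.08 ± 0.12, with an interval of −0.17 to 0.34 and adjusted p = 0.566. Scaling by library totals gave 0.28 and 0.30 in these comparisons, and Gja1 then passed (adjusted p = 0.022 and 0.0443).

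Gjc1 encodes connexin 45, known in the heart from the conduction system (ENSMUSG00000034520; chromosome 11, 102799579 to 102819700, minus strand). Its levels were 26.5, 27.5, 24.5, 29.0 and 27.8 CPM in rHCI hearts, 27.9, 25.8, 24.6, 29.4 and 29.9 CPM in PBS hearts, and 23.6, 21.2, 23.4, 21.4 and 21.8 CPM in Sham hearts. Every infarcted library was above every Sham library, by a narrow margin in rHCI 7 and PBS 9. Gjc1 rose by 0.30 ± 0.06 on the log2 scale in PBS hearts (adjusted p = 0.000544) and by 0.29 ± 0.06 in rHCI hearts (adjusted p = 0.000618).

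Gja5 encodes connexin 40, which is known from atrial muscle, the conduction system and the endothelium of arteries (ENSMUSG00000057123; chromosome 3, 96904693 to 97077416, plus strand). It had 16.1, 20.5, 15.9, 15.2 and 9.48 CPM in rHCI hearts, 13.9, 18.2, 19.6, 19.8 and 12.99 CPM in PBS hearts, and 7.70, 9.04, 8.20, 10.1 and 7.75 CPM in Sham hearts. All PBS hearts were above all Sham hearts, and among rHCI hearts rHCI 13 lay within the Sham range. Gja5 rose by 0.99 ± 0.12 on the log2 scale in PBS hearts (adjusted p = 1.05e-05) and by 0.87 ± 0.16 in rHCI hearts (adjusted p = 0.000591), the largest rise among the 10 genes in both comparisons. In the GENCODE M21 annotation an exon of Gja5 overlaps one of Gpr89 on the opposite strand, and over all libraries the table holds 13098 counts for Gja5 and 19810 for Gpr89. Whether the counting used strand is not given in the sources used here, so the level of Gja5 is uncertain.

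Markers of cell types that use connexin 40 differed in both directions. Among 11 tested genes of conduction and atrial muscle, PBS hearts had 6 higher and 2 lower than Sham hearts. Over all genes 71.4% were called in that comparison, 36.5% higher and 34.9% lower. The list added up to 1447 to 4822 CPM in rHCI hearts, 2808 to 4319 CPM in PBS hearts and 289 to 453 CPM in Sham hearts, most of it from the natriuretic peptide gene Nppa, and none of the 12 genes was at 0 over a group. Isl1, a pacemaker marker, was nearest to 0, with 6, 11 and 1 counts over the rHCI, PBS and Sham groups. The atrial light chain gene Myl7 reached 145 CPM in rHCI 1 and 25.1 to 49.98 CPM in the other rHCI hearts. The pacemaker channel gene Hcn4 went the other way, with 8.14 ± 1.34 CPM in rHCI hearts, 7.03 ± 1.119 CPM in PBS hearts and 11.4 ± 1.72 CPM in Sham hearts (log2 fold change −0.71 ± 0.13 in PBS against Sham hearts, adjusted p = 0.000254). Tbx3, a transcription factor gene of the conduction system, had 14.5 ± 2.93 CPM in rHCI hearts, 14.5 ± 1.93 CPM in PBS hearts and 23.7 ± 5.35 CPM in Sham hearts (−0.71 ± 0.13, adjusted p = 0.000329). Of 10 genes of arterial endothelium, 4 were higher and 3 lower in PBS against Sham hearts, beside the same shares of all genes, and none was at 0 over a group. That list added up to 448 to 528 CPM in rHCI hearts, 489.8 to 554 CPM in PBS hearts and 343 to 403 CPM in Sham hearts. Most of the difference in that sum came from Fbln5, a gene of elastic fibre assembly, with 136 ± 45.8 CPM in rHCI hearts, 185 ± 37.4 CPM in PBS hearts and 32.3 ± 2.99 CPM in Sham hearts. The 4 higher ones also included the arterial gene Efnb2. It had 37.5 ± 3.23 CPM in rHCI, 39.3 ± 4.46 CPM in PBS and 23.8 ± 2.09 CPM in Sham hearts. Its log2 fold change was 0.72 ± 0.08 in PBS against Sham hearts (adjusted p = 2.67e-06). The arterial genes Hey1, Sox17 and Sema3g were the 3 lower ones, with log2 fold changes of −0.55 ± 0.06, −0.34 ± 0.08 and −0.41 ± 0.07 in PBS against Sham hearts (adjusted p = 4.43e-06, 0.00147 and 8.08e-05). Scaled to the cardiomyocyte list, Hcn4 had 0.02, Tbx3 0.03, Hey1 0.20, Sox17 0.41 and Sema3g 0.34, of which Sox17 and Sema3g passed as higher. Hcn4, Tbx3, Fbln5, Efnb2, Hey1, Sox17 and Sema3g were chosen after their values were seen. The part of these markers in the result for Gja5 was not tested.

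The promoters of Gja1 and Gja5 are shown because these connexin genes lie far apart in response, with no difference beyond the spread in one and the largest rise in the other. They are the 250 bases before the transcript start in RefSeq (GRCm38.p6), at chr10:56377050-56377299 for Gja1 and chr3:97032152-97032401 for Gja5, both on the plus strand, and neither window holds an annotated exon. Capitals mark matches to the motifs searched on both strands.
Gja1: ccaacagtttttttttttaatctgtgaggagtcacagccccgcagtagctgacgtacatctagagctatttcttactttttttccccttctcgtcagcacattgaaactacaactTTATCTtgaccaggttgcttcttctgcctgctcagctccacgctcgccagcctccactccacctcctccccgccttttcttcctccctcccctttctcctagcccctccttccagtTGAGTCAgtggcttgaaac
Gja5: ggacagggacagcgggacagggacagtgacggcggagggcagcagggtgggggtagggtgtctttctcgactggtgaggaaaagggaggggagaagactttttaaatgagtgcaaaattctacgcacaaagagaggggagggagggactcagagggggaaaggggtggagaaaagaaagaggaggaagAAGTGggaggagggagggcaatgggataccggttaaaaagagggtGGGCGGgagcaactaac
The search covered the AP-1 motif with the letters TGANTCA, the GC box, which reads GGGCGG, and the TATA box, which reads TATAAA. It also covered the GATA motif, read as AGATAA, the motif of NKX2-5, read as AAGTG, that of T-box factors, read as GGTGTG, and MEF2. Gja1 held an AP-1 match that begins 19 bases before the start, and a GATA match at 135 bases. Gja5 held a GC box at 17 bases and an NKX2-5 match at 62 bases. Of 32851 promoter windows of that length, 6.75% held the AP-1 letters, 9.99% the GATA letters, 32.7% a GC box, 40.7% the NKX2-5 letters, 12.4% a TATA box and 3.2% a MEF2 match. RefSeq entries were at hand for 5 of the 10 genes, Gja1, Gja5, Ctnna3, Jup and Dsp.

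In the adherens junction both genes were lower in infarcted hearts on the TMM scale. Cdh2 encodes N-cadherin, the classical cadherin of heart muscle (ENSMUSG00000024304; chromosome 18, 16588877 to 16809246, minus strand). It had 346, 294, 313, 344 and 354 CPM in rHCI hearts, 290.0, 316, 304, 294 and 351 CPM in PBS hearts, and 458, 449.9, 441, 446 and 463 CPM in Sham hearts. Sham hearts varied little, with an SD of 1.93% of their mean, and lay far above all infarcted hearts. Cdh2 fell by 0.54 ± 0.05 on the log2 scale in PBS hearts (adjusted p = 1.17e-06) and by 0.44 ± 0.06 in rHCI hearts (adjusted p = 4.2e-05).

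Ctnna3 encodes alpha-T-catenin, which links the cadherin complex to actin and also binds plakophilin 2 (ENSMUSG00000060843; chromosome 10, 63430098 to 65003667, plus strand). It had 35.4, 30.1, 33.6, 41.9 and 38.6 CPM in rHCI hearts, 30.9, 30.3, 29.9, 29.9 and 40.5 CPM in PBS hearts, and 52.8, 47.3, 56.3, 48.8 and 51.5 CPM in Sham hearts. No infarcted library reached the Sham range, and PBS 14 stood well above the other PBS hearts. Ctnna3 fell by 0.67 ± 0.08 on the log2 scale in PBS hearts (adjusted p = 7.8e-06) and by 0.50 ± 0.08 in rHCI hearts (adjusted p = 0.000195).

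All 5 desmosome genes were lower in infarcted hearts of both injections on the TMM scale, Dsp and the desmosomal cadherin genes more than Pkp2 and Jup. Dsp encodes desmoplakin, which ties the desmosome to desmin filaments (ENSMUSG00000054889; chromosome 13, 38151294 to 38198577, plus strand). It had 1285, 1001, 1075, 1369.8 and 1367 CPM in rHCI hearts, 954, 1045, 1024, 956 and 1296 CPM in PBS hearts, and 1878, 1729.6, 2233, 1673 and 1886 CPM in Sham hearts. Again the groups with an infarct did not reach the Sham range, and PBS 14 was the highest of the PBS hearts. Dsp fell by 0.84 ± 0.10 on the log2 scale in PBS hearts (adjusted p = 4.74e-06) and by 0.61 ± 0.11 in rHCI hearts (adjusted p = 0.000362), the largest fall among the 10 genes in both comparisons.

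Dsg2 encodes desmoglein 2 (ENSMUSG00000044393; chromosome 18, 20558074 to 20604521, plus strand), and Dsc2 desmocollin 2 (ENSMUSG00000024331; chromosome 18, 20030633 to 20059554, minus strand), the cadherins that join desmosomes of neighbouring cells. Dsg2 had 92.2, 68.9, 78.3, 106 and 111 CPM in rHCI hearts, 76.1, 81.7, 77.1, 64.7 and 106 CPM in PBS hearts, and 144, 128, 134, 130.4 and 152 CPM in Sham hearts. Dsc2 had 47.0, 31.2, 41.8, 47.8 and 50.4 CPM in rHCI hearts, 36.0, 42.3, 37.6, 34.5 and 45.1 CPM in PBS hearts, and 62.3, 65.4, 59.6, 61.6 and 57.2 CPM in Sham hearts. For both genes every infarcted heart lay below every Sham heart, and rHCI 11 and 13 were the highest rHCI hearts and PBS 14 the highest PBS heart. Dsg2 fell by 0.77 ± 0.10 on the log2 scale in PBS hearts (adjusted p = 1.83e-05) and by 0.58 ± 0.11 in rHCI hearts (adjusted p = 0.000799). Dsc2 fell by 0.65 ± 0.07 in PBS hearts (adjusted p = 2.45e-06) and by 0.48 ± 0.11 in rHCI hearts (adjusted p = 0.00177).

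Pkp2 encodes plakophilin 2, the armadillo protein of the cardiac desmosome (ENSMUSG00000041957; chromosome 16, 16213318 to 16272712, plus strand), and Jup encodes plakoglobin, which serves in desmosomes and adherens junctions alike (ENSMUSG00000001552; chromosome 11, 100368958 to 100397763, minus strand). Pkp2 had 174, 157, 159, 169 and 155 CPM in rHCI hearts, 143, 153, 162, 184 and 163 CPM in PBS hearts, and 188, 184, 211, 190.0 and 229.9 CPM in Sham hearts. PBS 12 touched the lowest Sham heart, while the rHCI hearts stayed below. Jup had 282, 272, 273, 294 and 287 CPM in rHCI hearts, 260.3, 276, 262, 263 and 284 CPM in PBS hearts, and 380.0, 326, 348, 323 and 335 CPM in Sham hearts. The infarcted hearts were close together for Jup and all below the Sham hearts. On the log2 scale Pkp2 fell by 0.32 ± 0.07 in PBS hearts (adjusted p = 0.00154) and by 0.29 ± 0.07 in rHCI hearts (adjusted p = 0.00218). Jup fell by 0.35 ± 0.05 in PBS hearts (adjusted p = 4.32e-05) and by 0.27 ± 0.05 in rHCI hearts (adjusted p = 0.000919). Scaled by library totals, neither gene passed in either comparison, with adjusted p = 0.624 and 0.397 for Pkp2 and 0.156 and 0.401 for Jup.

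The Dsp promoter is shown as that of the gene with the largest fall, in the same RefSeq window at chr13:38151044-38151293 on the plus strand, which overlaps an exon of Gm10129 on the opposite strand. Capitals mark motif matches.
Dsp: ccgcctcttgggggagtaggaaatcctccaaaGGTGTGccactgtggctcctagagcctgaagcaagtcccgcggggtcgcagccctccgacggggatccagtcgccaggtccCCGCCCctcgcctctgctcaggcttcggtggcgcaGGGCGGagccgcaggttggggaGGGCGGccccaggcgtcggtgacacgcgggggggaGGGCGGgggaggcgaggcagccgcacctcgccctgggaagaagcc
It held GC boxes at 137, 102, 80 and 45 bases before the start and a T-box match at 218 bases, letters found in 32.7% and 16.3% of all windows. The windows of Gja1 and Gja5 printed above held no T-box match, and that of Gja1 no GC box.

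Other markers moved with these falls. Of the 12 cardiomyocyte genes PBS hearts had 10 lower and 0 higher than Sham hearts, beside 34.9% and 36.5% of all genes. A list of 10 fibroblast markers added up to 13365 to 21634 CPM in rHCI hearts, 14615 to 21374 CPM in PBS hearts and 1221 to 1529.9 CPM in Sham hearts, with all 10 higher in PBS hearts. The 8 macrophage markers added up to 434 to 539 CPM in rHCI hearts, 433 to 577 CPM in PBS hearts and 140.0 to 177 CPM in Sham hearts, all 8 higher in PBS hearts, and no gene of these 3 lists was at 0 over a group. Their part in the falls was not tested.

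Relative to other cardiomyocyte genes the picture differed. When library sizes were set from the geometric mean of the 12 cardiomyocyte genes, the median gene of the table moved up by 0.74 in PBS and 0.58 in rHCI hearts against Sham, and 81.1% and 73.4% of genes were called higher, 1.96% and 2.03% lower. The 12 genes themselves did not move as one. Of them 3 were called higher and 5 lower in PBS hearts, and 2 and 4 in rHCI hearts, so calls on this scale depend on the genes listed. On this scale Dsp had a log2 fold change of −0.10 ± 0.09 in PBS against Sham hearts, Dsg2 −0.04 ± 0.08, Ctnna3 0.06 ± 0.10 and Dsc2 0.08 ± 0.10, none of which passed (adjusted p = 0.267, 0.674, 0.546 and 0.432). Cdh2 at 0.20 ± 0.08, Jup at 0.40 ± 0.09 and Pkp2 at 0.44 ± 0.12 passed as higher (adjusted p = 0.0309, 0.000485 and 0.0024). Gja1 at 0.75 ± 0.14, Gjc1 at 1.05 ± 0.12 and Gja5 at 1.75 ± 0.18 were also higher. Set against the shift of the median gene, Gja1 stood at 0.01, Gja5 at 1.01, Jup at −0.34 and Dsp at −0.85. Scaling by library totals moved the median gene by 0.27 and 0.22 and called 3 disc genes higher and 5 lower in each comparison, beside 71.3% of all genes in PBS against Sham hearts, 55.1% higher and 16.1% lower, and 63.1% in rHCI against Sham hearts, 49.8% higher and 13.2% lower.

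**Figure D2:**
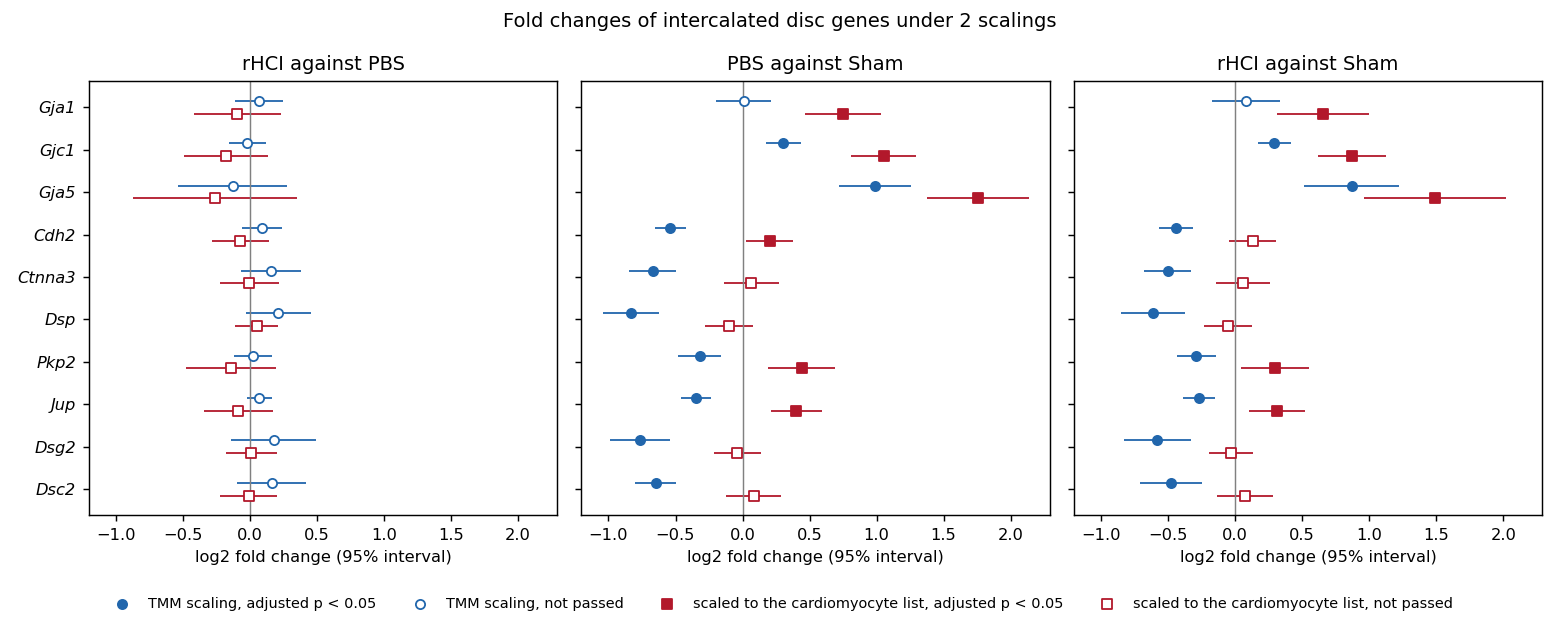
Log2 fold changes with 95% intervals of the 10 disc genes in rHCI against PBS, PBS against Sham and rHCI against Sham hearts, with TMM scaling (blue circles) and scaled to the cardiomyocyte list (red squares); filled symbols passed at an adjusted p of 0.05. With TMM scaling 7 genes are lower against Sham hearts. Scaled to the cardiomyocyte list none is called lower and 6 are called higher in PBS hearts, where 81.1% of all genes are called higher.

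The comparison of rHCI with PBS hearts addresses what the hydrogel changed 2 days after its injection. None of the 10 genes passed, and the libraries of both groups overlapped for all 10, beside 0.531% of all genes without overlap, 0.165% higher and 0.366% lower in rHCI hearts. By edgeR 0% of 16383 genes were called, and 0 disc genes had an unadjusted p under 0.05, the smallest being 0.0808 for Dsp. DESeq2 and limma-voom with quality weights also called 0 of the 10, with 6 and 3 genes called over the table.

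None of the differences passed, and their signs were mostly positive. The fold change was positive for 8 genes and negative for Gjc1 and Gja5, with a median log2 value of 0.08 for the 10 genes and 0.00 for all genes. Scaled to the cardiomyocyte list only Dsp and Dsg2 were positive, but there the median gene of the table itself moved by −0.16. Set against that shift, only Gjc1 and Gja5 were negative, at −0.02 and −0.10. Dsp averaged 1219.7 ± 171 CPM in rHCI hearts and 1055 ± 141 CPM in PBS hearts (SD, n = 5 each), a log2 fold change of 0.21 ± 0.11 with a 95% interval of −0.03 to 0.46. Dsg2 had 0.18 ± 0.15 with an interval of −0.14 to 0.50, Dsc2 0.16 ± 0.12 with −0.10 to 0.42, and Ctnna3 0.16 ± 0.10 with −0.07 to 0.38. Cdh2 had 0.09 ± 0.07, Jup 0.07 ± 0.04, Gja1 0.07 ± 0.08 and Pkp2 0.02 ± 0.06. The narrowest interval was that of Jup, −0.03 to 0.16. Gja5 had the widest, −0.53 to 0.28 around −0.13 ± 0.19, and without rHCI 13 its log2 fold change was 0.00. The cardiomyocyte score, the mean log2 CPM of the 12 cardiomyocyte genes, was 11.4 to 12.02 in rHCI hearts and 11.3 to 11.9 in PBS hearts. All 12 of its genes had positive fold changes and none passed, and its part in these values was not tested.

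Among the 10 infarcted hearts 5 of the 7 adhesion genes went up with the cardiomyocyte score, and none of the connexin genes had a positive slope that passed. In a fit with the score and the injection as terms, a slope of 1 means that a gene changes in proportion to the score. Dsg2 had a slope of 1.14 ± 0.09 (SE, adjusted p = 4.12e-05), Dsc2 0.86 ± 0.13 (adjusted p = 0.000297), Dsp 0.76 ± 0.10 (adjusted p = 0.000181), Ctnna3 0.69 ± 0.12 (adjusted p = 0.00097) and Cdh2 0.43 ± 0.08 (adjusted p = 0.00104). The interval of Dsg2, 0.95 to 1.32, includes 1, as does that of Dsc2, 0.59 to 1.14. Those of Dsp, 0.54 to 0.99, Ctnna3, 0.42 to 0.96, and Cdh2, 0.26 to 0.59, lie below 1. The cardiomyocyte genes of the score themselves had slopes from 0.33 for Actc1 and 0.36 for Mybpc3 to 2.04 for Tcap, with a median of 1.02. The slopes of Dsp, Ctnna3 and Cdh2 lay within that range, so a slope below 1 does not set them apart from these genes. Jup at 0.16 ± 0.06, Gjc1 at 0.10 ± 0.14, Gja1 at −0.04 ± 0.18 and Pkp2 at −0.09 ± 0.14 did not pass (adjusted p = 0.0659, 0.616, 0.876 and 0.641). Gja5 ran the other way, with a slope of −1.24 ± 0.26 (adjusted p = 0.0026). In the same fit, 10 other connexin and pannexin genes were tested, of which 1 had a positive slope that passed and 3 a negative one. The positive slope was that of the connexin gene Gja3, at 0.78 (adjusted p = 0.00516).

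In all, 5 disc genes had a positive and 1 a negative slope, where 38.4% of 16383 genes passed, 18.6% positive and 19.8% negative. Score and genes come from the same libraries and share their scaling factors. With other scalings, filters, score genes or libraries left out, 6 or 7 of the 10 passed. Sham hearts, which were not in this fit, had scores of 12.2 to 12.4.

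**Figure D3:**
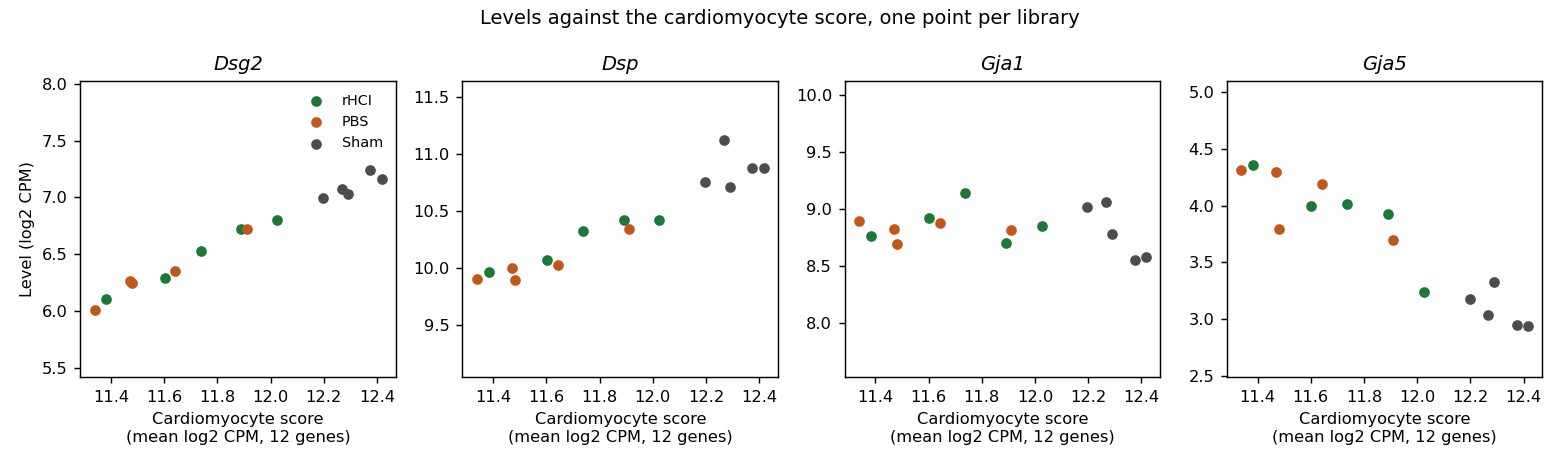
Level in log2 CPM of Dsg2, Dsp, Gja1 and Gja5 against the cardiomyocyte score (mean log2 CPM of 12 genes), one point per library, with the same height of axis in each panel. Dsg2 and Dsp run upwards over the 10 infarcted hearts (slopes of 1.14 and 0.76), Gja1 is flat (−0.04) and Gja5 runs downwards (−1.24).

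Per kilobase of annotated exon, Dsp was the highest of the 10 genes in every group, at 126 ± 17.7 CPM per kb in rHCI hearts, 109 ± 14.6 in PBS hearts and 195 ± 22.6 in Sham hearts. Gja1 was second in infarcted hearts, with 46.1 ± 5.63 CPM per kb in rHCI and 44.2 ± 2.34 in PBS hearts, and below Cdh2 and Jup in Sham hearts with 43.9 ± 7.27. In infarcted hearts Gja1 overlapped with Jup and Jup with Cdh2, and in Sham hearts Cdh2 (56.0 ± 1.08), Jup (53.2 ± 3.57), Gja1 and Pkp2 (37.4 ± 3.63) each overlapped with the next, so their order is not fixed beyond the spread. Dsg2 and Dsc2 followed, with 11.1 ± 2.17 and 8.27 ± 1.44 CPM per kb in rHCI hearts, 9.80 ± 1.82 and 7.41 ± 0.841 in PBS hearts, and 16.6 ± 1.20 and 11.6 ± 0.578 in Sham hearts. Ctnna3 stood above Gjc1 in Sham hearts, without overlap, and below it with overlap in infarcted hearts. Gja5 was last in every group, with 2.69 ± 0.685, 2.94 ± 0.564 and 1.49 ± 0.175 CPM per kb in rHCI, PBS and Sham hearts. Lengths are those of all annotated exons together, and a transcript may use only some of them.

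The share of Gja1 in connexin RNA was lower in PBS than in Sham hearts, although its own level did not differ beyond the spread. Of the counts per kb of 20 connexin genes, Gja1 took 71.0%, 62.3%, 67.8%, 63.1% and 68.2% in rHCI hearts, 62.2%, 65.5%, 63.6%, 63.6% and 65.7% in PBS hearts, and 66.6%, 73.9%, 74.5%, 70.7% and 67.0% in Sham hearts. Every PBS heart was below every Sham heart, and rHCI hearts overlapped with both. The difference in mean was −6.43 percentage points for PBS against Sham hearts (64.1% ± 1.47 against 70.5% ± 3.71, SD, n = 5 each; exact permutation p = 0.00794, two-sided, the smallest this design can give, 0.0238 adjusted over the 3 comparisons). For rHCI hearts (66.5% ± 3.66) the mean difference was −4.05 points from Sham hearts (exact permutation p = 0.135, adjusted 0.203) and 2.38 points from PBS hearts (exact permutation p = 0.214, adjusted 0.214). A share within a library does not depend on the scaling of libraries.

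The remainder went to few genes. Gja4, connexin 37 of arterial endothelium, took 12.5% ± 2.26 in rHCI hearts, 13.98% ± 0.973 in PBS hearts and 9.16% ± 1.19 in Sham hearts. Gja3, connexin 46, best known from the lens, took 5.18% ± 1.08, 5.04% ± 0.820 and 8.999% ± 1.48 in rHCI, PBS and Sham hearts. Gjc1 took 7.88% ± 0.932, 7.997% ± 0.781 and 7.27% ± 0.921, and Gja5 3.89% ± 0.993, 4.25% ± 0.669 and 2.42% ± 0.309, in the same order.

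**Figure D4:**
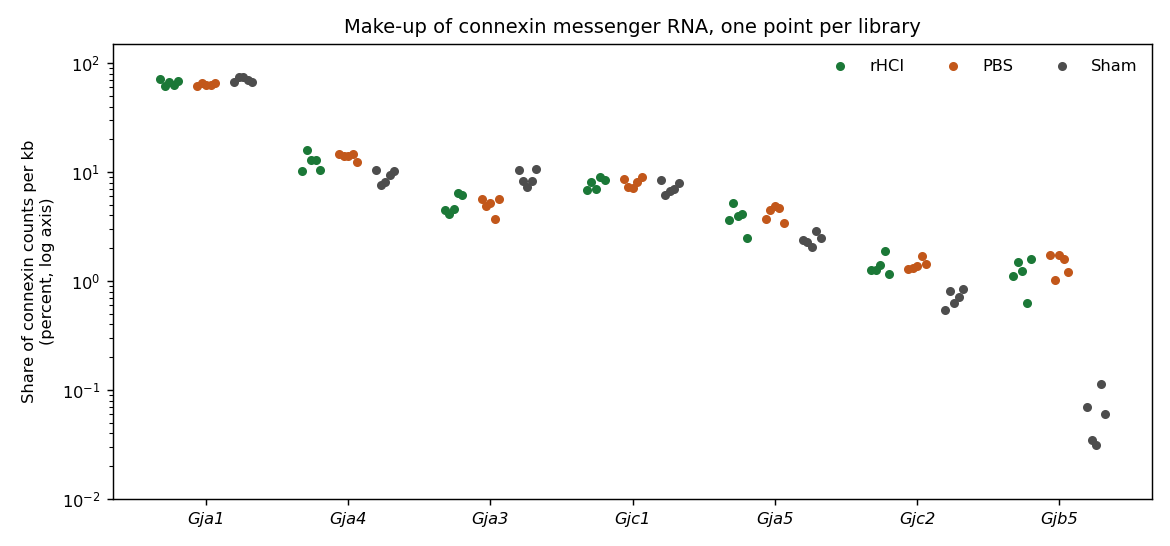
Share of 7 connexin genes in the counts per kb of 20 connexin genes, in percent on a log axis, one point per library. Gja1 holds 62.2% to 74.5% in every library, and Gjb5 takes 1.02% to 1.74% in PBS hearts and 0.0316% to 0.113% in Sham hearts.

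The disc genes differed in how much of their family's RNA they held. Dsg2 held 99.8%, 99.7% and 99.8% of the desmoglein counts per kb in rHCI, PBS and Sham hearts, and Dsc2 99.7%, 99.6% and 99.97% of those of desmocollins. Pkp2 shared the plakophilins with Pkp4, holding 56.8% ± 0.783 in rHCI, 57.8% ± 2.19 in PBS and 54.0% ± 0.957 in Sham hearts. Ctnna3 was the minor alpha-catenin, at 4.65% ± 0.347, 4.43% ± 0.447 and 5.62% ± 0.324, beside the ubiquitous Ctnna1. Among 9 cadherin genes Cdh2 held 32.9% ± 3.65 in rHCI hearts, 31.1% ± 2.44 in PBS hearts and 43.9% ± 1.98 in Sham hearts, and Cdh5, the cadherin of endothelium, 47.5% ± 4.13, 48.5% ± 2.21 and 40.1% ± 2.67. These shares carry no test.

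Other junction genes went in both directions. Of 20 other connexin and pannexin genes 10 had enough counts to be tested. PBS hearts had 6 of them higher and 1 lower than Sham hearts, beside 36.5% and 34.9% of all genes. Scaled to the cardiomyocyte list 6 were higher and 0 lower, beside 81.1% and 1.96% of all genes. Panx1, a pannexin that forms channels to the outside of the cell, had 9.96 ± 2.74 CPM in rHCI hearts, 10.8 ± 0.837 in PBS hearts and 1.24 ± 0.200 in Sham hearts, a log2 fold change of 3.12 ± 0.11 in PBS against Sham hearts (adjusted p = 2.01e-10). Gja4 rose by 0.78 ± 0.07 (adjusted p = 3.77e-07). Gja3 fell by 0.68 ± 0.09 (adjusted p = 1.59e-05), and scaled to the cardiomyocyte list it had 0.06 ± 0.12.

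Several epithelial junction genes were near 0 in Sham hearts, and the following were chosen after their values were seen. Their counts are summed over groups of unlike depth, so mean CPM is given too. The connexin gene Gjb5 had 403 counts over the rHCI group, 577 over the PBS group and 20 over the Sham group (1.45, 1.73 and 0.0642 CPM). The E-cadherin gene Cdh1 had 166 counts over the rHCI group, 303 over the PBS group and 8 over the Sham group (0.590, 0.849 and 0.0255 CPM). The desmocollin gene Dsc3 had 31, 48 and 0 counts (0.112, 0.169 and 0 CPM). The 10 listed markers of epicardium and mesothelium, the epithelial covering of the heart, added up to 76.7 to 139 CPM in rHCI hearts, 75.1 to 141 CPM in PBS hearts and 25.4 to 39.0 CPM in Sham hearts. All 10 were higher in PBS than in Sham hearts, beside 36.5% of all genes, and none was at 0 over a group. The part of these markers in the values of the epithelial junction genes was not tested.

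Of 15 other desmosome genes 7 were tested. In PBS against Sham hearts 3 of them were higher and 3 lower, beside 36.5% and 34.9% of all genes. Scaled to the cardiomyocyte list 6 were higher and 0 lower, beside 81.1% and 1.96% of all genes. The plakophilin gene Pkp4 fell by 0.55 ± 0.06 on the log2 scale, Perp, a desmosomal membrane protein gene, by 0.39 ± 0.05, and Des, which encodes desmin, by 0.27 ± 0.07 (adjusted p = 1.24e-06, 6.91e-06 and 0.00241), while scaled to the cardiomyocyte list they had 0.19, 0.36 and 0.48, of which Perp and Des passed as higher. Tmem43, a nuclear envelope gene linked to arrhythmogenic cardiomyopathy in humans, rose by 0.92 ± 0.05 (adjusted p = 5.29e-09).

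Of 20 other adherens junction genes 18 were tested. In PBS against Sham hearts 8 of them were higher and 4 lower, beside 36.5% and 34.9% of all genes. Scaled to the cardiomyocyte list 16 were higher and 0 lower, beside 81.1% and 1.96% of all genes. The rises were led by the cadherin genes Cdh3, at 10.4 CPM in PBS and 0.332 CPM in Sham hearts (log2 fold change 4.98 ± 0.27), and Cdh11, a cadherin of fibroblasts, at 44.1 ± 9.18 CPM in rHCI, 54.7 ± 8.76 CPM in PBS and 10.4 ± 1.36 CPM in Sham hearts (2.39 ± 0.12). Nectin3, an adhesion molecule of the immunoglobulin type, had a log2 fold change of 0.71 ± 0.07, and Ctnnal1, a relative of the alpha-catenins, −0.63 ± 0.09. All 4 passed, with adjusted p = 4.54e-09, 3.4e-09, 9.14e-07 and 4.48e-05, and scaled to the cardiomyocyte list Ctnnal1 had 0.12.

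Scaffold and channel genes of the disc went mostly with its adhesion genes. Of 24 tested, PBS hearts had 4 higher and 16 lower than Sham hearts, beside 36.5% and 34.9% of all genes. Scaled to the cardiomyocyte list 19 were higher and 0 lower, beside 81.1% and 1.96% of all genes. Myzap, a myocardial protein of the disc, had a log2 fold change of −0.79 ± 0.07, Lmo7, an adherens junction scaffold, −0.74 ± 0.08, and Ank2, ankyrin B, −0.66 ± 0.08 (adjusted p = 6.44e-07, 1.55e-06 and 1.13e-05), and scaled to the cardiomyocyte list −0.06, −0.00 and 0.07, none of which passed. In rHCI against PBS hearts none of the genes of these 4 lists passed, and 21 of the 24 scaffold and channel genes had positive fold changes, with a median of 0.09 beside 0.00 over all genes. The 12 cardiomyocyte genes were all positive there too, with a higher median of 0.16, so this lean was not particular to the disc.

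**Figure D5:**
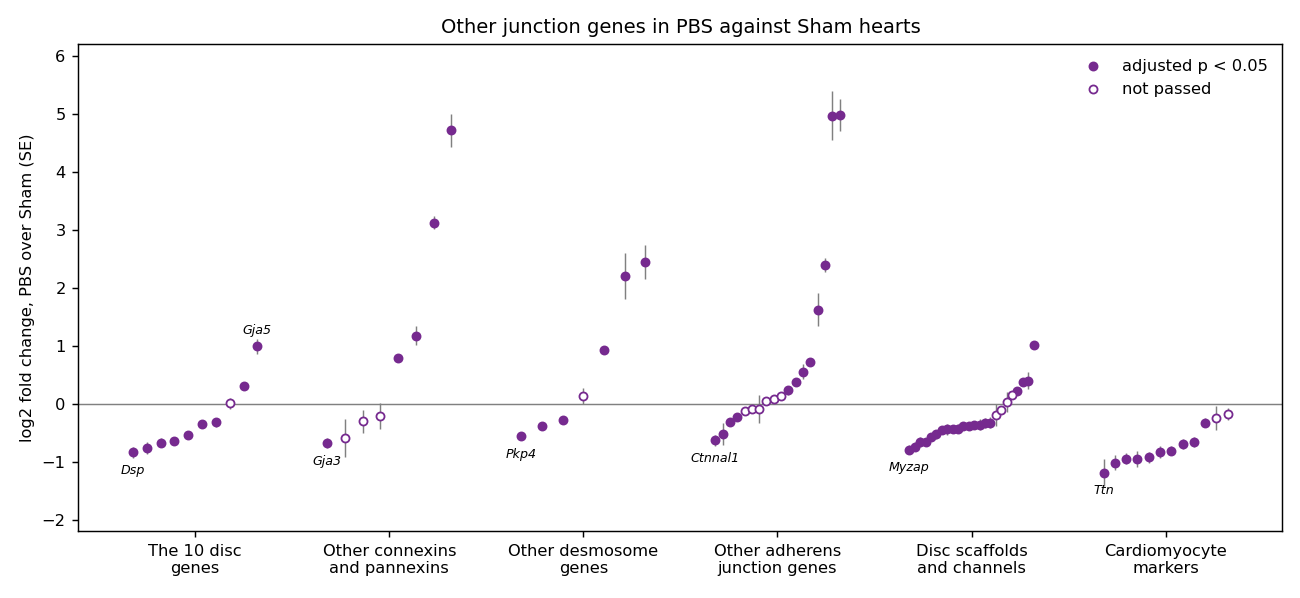
Log2 fold changes with SE in PBS against Sham hearts for the 10 disc genes and 5 lists; filled points passed at an adjusted p of 0.05, and genes with 3 counts or fewer over a group are not drawn. Of the 24 scaffold and channel genes 16 are lower, and scaled to the cardiomyocyte list 0 are, beside 34.9% and 1.96% of all genes.

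Within groups the disc genes fell into sets that varied together. Over the deviations of 15 libraries from their group means in log2 CPM, Pearson's r was 0.93 between Cdh2 and Dsg2, 0.92 between Ctnna3 and Dsp, 0.88 between Cdh2 and Dsc2 and 0.81 between Dsg2 and Dsc2. Pkp2 stayed between −0.11 and 0.28 with every other member. Gja5 ran against the adhesion genes other than Pkp2, from −0.77 for Dsg2 to −0.46 for Jup, and had 0.15 with Pkp2. Gja1 stayed between −0.25 and 0.22 with every other member. These values are descriptions, since all genes of a library share its scaling and its tissue make-up.

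Over 16634 genes, those nearest to members by the same measure included Ubr3 for Dsp (r = 0.98), Fyco1 for Dsg2 (0.98), E2f6 for Cdh2 (0.96), Gm37829 for Dsc2 (0.95) and Uba1 for Jup (0.92). Ank2, the ankyrin gene of the scaffold list, was also near to Dsg2 (0.97). For the connexins they were Ets1 for Gja5 (0.93), followed by Slfn3 (0.93) and Fli1 (0.92), Gm38357 for Gjc1 (0.88) and Rab40b for Gja1 (0.87). Rdx was nearest to Pkp2 (0.88). The connexins Gja1 and Gjc1 and the plakophilin gene Pkp2 thus had less similar neighbours than Dsp and Dsg2. All these genes were picked for the highest r among 16634 genes over only 15 libraries. How high r would reach for unrelated genes picked in this way was not tested.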

How the data were processed

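Raw read counts per gene, one column for each of the 15 left ventricle libraries, were used as the authors deposited them. Per the submitters' processing notes, Trimmomatic, STAR, Cufflinks and edgeR were used with build GRCm38/mm10. For the counting tool, its annotation and its use of strand, the sources used here give nothing. The 5 libraries of a group are called biological replicates in the labels, and all 30 pairs of replicates differed beyond counting noise (lowest chi-square per gene 10.66, genes with at least 50 counts). In R 4.3.3, each pair of groups was fitted with edgeR 4.0.16 (filterByExpr, TMM, quasi-likelihood test), with Benjamini-Hochberg adjustment over all genes tested and a threshold of 0.05. A further fit regressed the 10 infarcted libraries on the cardiomyocyte score. Shares of Gja1 were compared by exact permutation of 252 arrangements (scipy 1.17.1). Alternatives were other scalings, DESeq2 1.42.0, limma 3.58.1 (voom), filters, all 15 libraries, the label number, and each replicate left out. Other junction genes were named by size of change at 5 CPM or more among those called, and the exceptions are stated. Scripts were tested on simulated data. The members and lists were chosen with earlier results of these data known. Some named genes are not reported here.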

Additional observations from a re-analysis of the deposited data

Results flagged for a closer look

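Ctnna3 in PBS 14 was far from the other libraries of its group, at 40.5 CPM beside 29.9 to 30.9 CPM. Dsp in PBS 14 was also far from the rest, at 1296 CPM beside 954 to 1045 CPM. These are 2 of 30 groups of 5 values examined, and chance alone gives about 1 in 20. PBS 14 had the highest cardiomyocyte score of the PBS hearts, 11.9, and its part in these values was not tested.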

How the results depend on the processing

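No paired analysis was possible because the groups share no replicate numbers. The number of disc genes called was 9 in PBS against Sham hearts and 9 in rHCI against Sham hearts under most alternatives. These were RLE factors, DESeq2, limma-voom, other filters, all 15 libraries, the shared label number only, the label number as a covariate and each replicate left out. The number called was 8 with library totals, and 6 and 5 scaled to the cardiomyocyte list. In rHCI against PBS hearts it was 0 under every alternative. Scaled to the cardiomyocyte list, log2 fold changes in PBS against Sham hearts turned to 0.20 for Cdh2, 0.0642 for Ctnna3, 0.44 for Pkp2, 0.40 for Jup and 0.0841 for Dsc2, and in rHCI against Sham hearts to 0.13, 0.0600, 0.30, 0.31 and 0.0729. In rHCI against PBS hearts, where nothing was called, that scaling gave −0.10 for Gja1, −0.0712 for Cdh2, −0.0043 for Ctnna3, −0.14 for Pkp2, −0.0879 for Jup and −0.0111 for Dsc2. Pkp2 there had −0.0231 with library totals and −0.0246 with the shared label number only, and Gjc1 0.0249 by limma-voom. Gja1 in PBS against Sham hearts had −0.0109 with the shared label number only. With each replicate left out, log2 fold changes crossed 0 for Gja1 in PBS against Sham hearts (−0.0567 to 0.0728) and in rHCI against PBS hearts for Gja1 (−0.0080 to 0.11), Pkp2 (−0.0135 to 0.0729), Gjc1 (−0.0563 to 0.0128) and Gja5 (−0.25 to 0.0038). Scaled to the cardiomyocyte list, the median log2 fold change of all genes was itself 0.74 in PBS and 0.58 in rHCI against Sham hearts. It was −0.16 in rHCI against PBS hearts. The cause of the sign changes was not tested. The difference in Gja1 share between PBS and Sham hearts was −7.41 to −5.44 points with a replicate left out.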
